A study of Arabidopsis thaliana with 6 samples.

Results

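Expression of 60 probe sets was higher after estradiol (EST) in seedlings and lower after EST in leaves of Arabidopsis GRF9-IOE plants, out of 22746 probe sets measured on the ATH1 array. They were chosen by 2 values. The EST minus mock difference in seedlings, averaged over 3 h and 4 h, had to be at least 0.6 on the log2 scale, and the EST minus mock difference in leaves at 6 h had to be -0.6 or lower. Of the 62 probe sets that met both limits, 2 were left out because they belong to gene families that were set aside, ZAT6 and AT5G51190 (ERF105), both named only through a supplementary gene table of the study. WRKY, ZAT and ERF105 probe sets could be recognised only where a table named their gene, so a probe set of these families with no name may still be among the members. A gene was named for 32 members, 2 members matched several genes and are given by probe set only, and 26 had no gene in the tables used here.

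GRF9-IOE plants carry GRF9, a transcription factor of the GROWTH-REGULATING FACTOR family, behind a promoter that EST switches on. Seedlings were 2 weeks old, grew on MS plates and were collected 3 h and 4 h after 10 µM EST or after ethanol (mock). Mature leaves were detached from 40-day-old soil-grown plants and collected at 6 h after the same treatments; the labels give 0.1% ethanol for the mock arm, and the study's methods give another plant age and ethanol concentration. Each of the 6 conditions was measured on 1 array, all plants carried the transgene, and no array of EST-treated plants without it was used here, so GRF9 induction and EST itself cannot be told apart. Tissue cannot be told apart from age, growth on soil, detachment and the hour of collection. How many independent transgenic lines the RNA came from was not given in the sources used here. GRF9 has no probe set on this array, so induction could not be checked in these samples.

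Values are log2 signals, on which 1 unit is a doubling. The lowest signal on any array was 2.15, and between 25.5% and 27.4% of the probe sets lay within 0.01 of it, so a difference that starts or ends there is only partly measured. Array medians ranged from 5.15 to 5.33. The root marker PYK10 had signals between 12.06 and 12.27 in seedlings and of 2.17 in both leaf arrays. EXPA7, the other root marker with a named probe set, stayed between 2.15 and 2.25 on all 6 arrays. The green tissue marker RCA had signals from 13.44 to 14.13 on all 6 arrays. None of the 5 markers of dividing cells had a named probe set. In whole seedlings and leaves, fewer cells of a type and less RNA per cell cannot be told apart.

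Several of the named members belong to families known from wounding, pathogen and oxidative stress responses. Jasmonates are wound and defence hormones, and plants turn them off partly through JASMONATE-INDUCED OXYGENASES (JOX), which hydroxylate jasmonic acid. Leucine-rich repeat (LRR) and lectin receptor kinases sit in the plasma membrane, where many of them sense microbes or cell wall damage, and U-box ubiquitin ligases such as PUB23 dampen the immune signalling that follows. Class III peroxidases are secreted enzymes that use hydrogen peroxide to stiffen or loosen the cell wall.

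**Figure D1:**
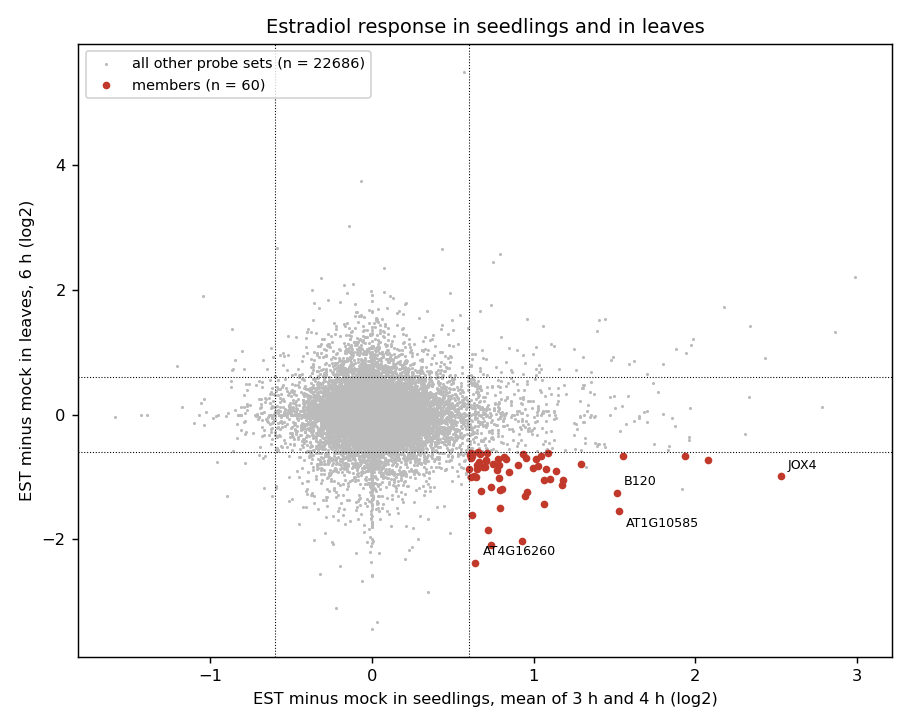
EST minus mock in leaves at 6 h (vertical, log2) against the mean EST minus mock in seedlings at 3 h and 4 h (horizontal, log2) for all 22746 probe sets; dotted lines mark 0.6 and -0.6, and red points are the 60 members in the lower right. The 2 grey points in that corner are the probe sets left out by family; the medians of the members are 0.79 and -0.86, and JOX4 has the largest seedling difference among members, 2.53.

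The rule fixes the direction of both responses, so the sizes are a description with no test. Over all probe sets, 511 (2.25%) met the seedling limit and 989 (4.35%) met the leaf limit. The 62 probe sets that met both make 12.1% of the first group and 6.27% of the second. Among members the seedling difference ranged from 0.60 to 2.53 with a median of 0.79, and the leaf difference from -0.60 to -2.37 with a median of -0.86. A leaf difference of -1 or lower was seen in 20 members, against 278 probe sets (1.22%) in all, a contrast the rule used. The members nearest to the seedling limit were AT2G20670 at 0.603 and 245051_at at 0.609, and just outside it lay AT1G72940 and 267423_at, both at 0.594. At the leaf limit, 256356_s_at at -0.602 and 249878_at at -0.607 were just inside, and 255564_s_at at -0.599 and 264246_at at -0.582 just outside. Some probe sets thus lay close to each limit on both sides, so membership depended on where the limits were set.

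Jasmonate oxygenases were the most complete of the families examined, which were put together after the values had been seen. All 3 JOX genes with a signal above the minimum were members, against 60 of 22746 probe sets in all. Because the grouping came after the values, this is a description. The array listed JOX1 at 2.15 in every sample. JOX4 (AT2G38240), with the largest gap between seedlings and leaves of all members, had signals of 2.39 in mock and 6.55 in EST seedlings at 3 h, 3.40 and 4.29 at 4 h, and 9.55 and 8.57 in mock and EST leaves. Its difference at 3 h was thus 4.17 and at 4 h 0.89, against -0.98 in leaves, and even the highest seedling signal was lower than both leaf signals. The mock seedling signal at 3 h lay close to the array minimum. JOX3 (AT3G55970, JRG21) gave 4.76 and 6.73 in mock and EST seedlings at 3 h, 4.76 and 5.89 at 4 h, and 7.31 and 6.65 in mock and EST leaves. The EST signals of seedlings at 3 h and of leaves were nearly equal for this gene, so the leaf and seedling ranges overlapped. JOX2 (AT5G05600) had signals of 6.85 and 7.72 at 3 h, 6.85 and 7.35 at 4 h, and 10.45 and 9.61 in leaves. Both leaf arrays lay above all 4 seedling arrays for JOX2. These 3 were also 3 of the 4 genes measured from a list of 23 jasmonate synthesis and signalling genes, so that list says little beyond the JOX family.

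**Figure D2:**
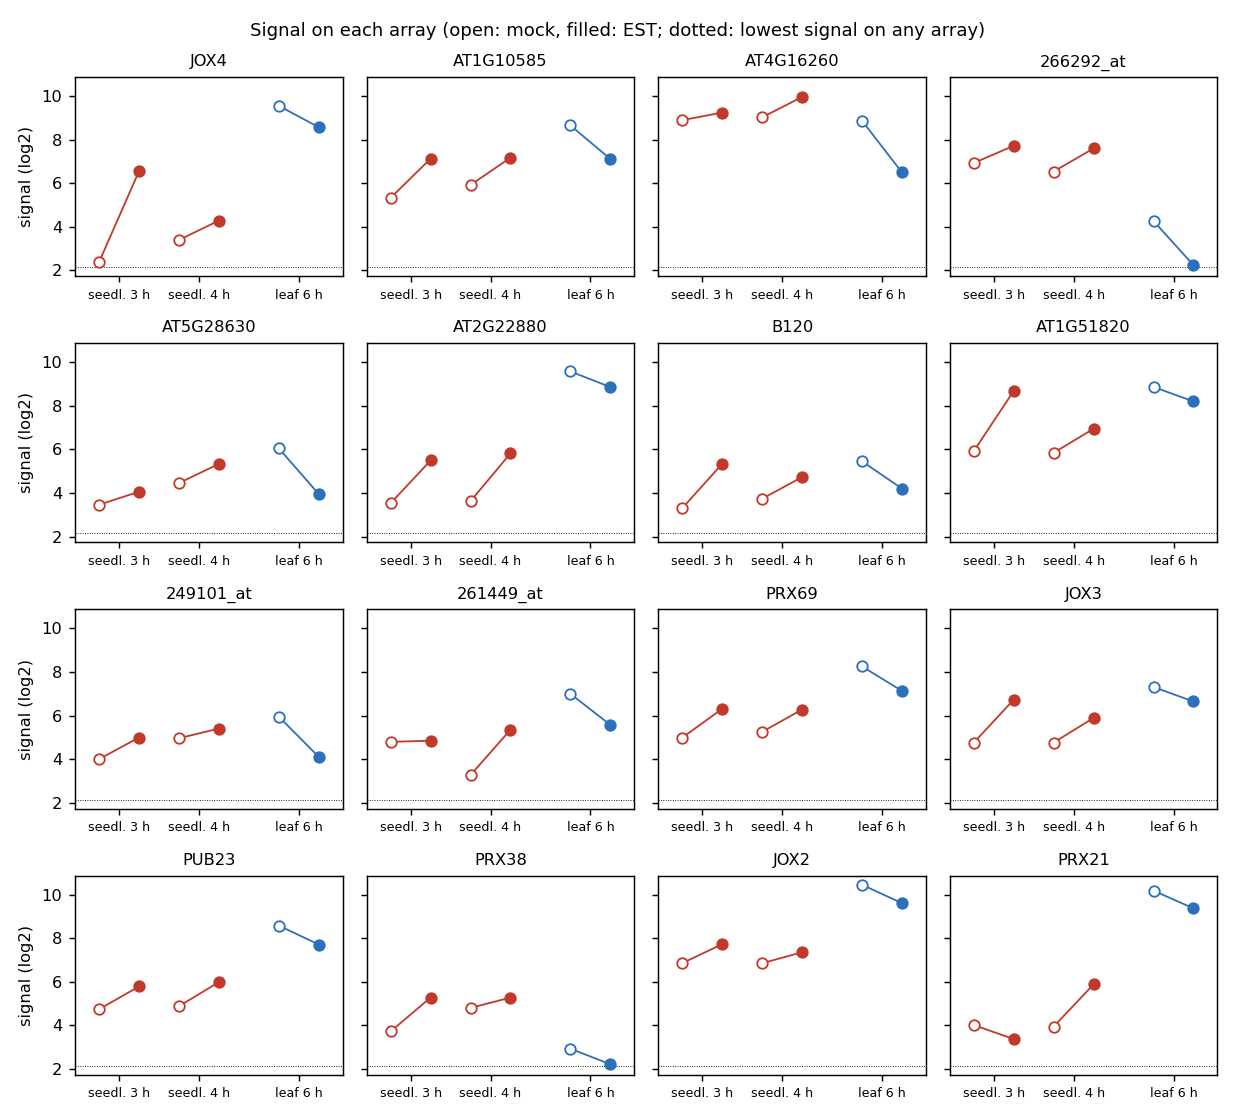
Log2 signal on each of the 6 arrays for 16 members (vertical axis) in seedlings at 3 h and 4 h (red) and leaves at 6 h (blue), with open circles for mock, filled circles for EST, and a dotted line at the lowest signal on any array, 2.15. Red lines slope up and blue lines slope down by choice of the members, except at 3 h for PRX21; what the rule did not fix is the height of the blue points, which lie well above the red ones for JOX2, AT2G22880 and PRX21 and below them for 266292_at and PRX38.

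Class III peroxidases gave 3 members, which differed in how leaves compared with seedlings. PRX69 (AT5G64100) had signals of 4.99 in mock and 6.31 in EST seedlings at 3 h, 5.25 and 6.27 at 4 h, and 8.26 and 7.13 in mock and EST leaves, so both leaf signals lay above every seedling signal. PRX38 (AT4G08780) showed 3.72 and 5.28 at 3 h, 4.80 and 5.27 at 4 h, and 2.93 and 2.22 in leaves. For PRX38 the leaf signals were the lower ones, and the EST leaf signal was next to the array minimum. PRX21 (AT2G37130) had 4.01 and 3.38 at 3 h, 3.95 and 5.88 at 4 h, and 10.18 and 9.37 in leaves. Its 3 h difference was -0.64 and its 4 h difference 1.94, so it met the seedling limit through the 4 h pair alone. Among the other peroxidases examined, PRX37, the immediate neighbour of PRX38 among protein-coding genes, fell short of the seedling limit with differences of 0.58 and 0.39 and had a leaf difference of -1.89. PRX62 had differences of 1.82 at 3 h, 0.22 at 4 h and -0.32 in leaves, and PRX52 of 0.16, 0.06 and 1.91, so the family did not share the pattern. From the list of 15 cell wall genes and class III peroxidases, 10 were measured, 1 of them named only through the study's gene table. Of the 10, 5 met the seedling limit, 3 had leaf differences of -0.6 or lower, against 2.25% and 4.35% of all probe sets, and 2 had differences of 0.6 or higher (4.54% of all probe sets, 1032).

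Receptor kinases formed another group. AT1G51820, an LRR kinase, had signals of 5.92 in mock and 8.68 in EST seedlings at 3 h, 5.85 and 6.95 at 4 h, and 8.86 and 8.20 in mock and EST leaves. Seedlings after 3 h of EST thus reached the level of leaves. B120 (AT4G21390), an S-locus lectin receptor kinase, had 3.30 and 5.34 at 3 h, 3.74 and 4.73 at 4 h, and 5.46 and 4.21 in leaves, and its seedling and leaf ranges overlapped. AT1G51850, a second member from the same LRR kinase cluster on chromosome 1, lies on the same stretch with 3 protein-coding genes between it and AT1G51820, with 1.23 after 3 h, 0.38 after 4 h and -1.19 in leaves for EST minus mock. Of 9 genes of the cluster with a named probe set, 4 met the seedling limit and 4 the leaf limit. The shares over all probe sets were 2.25% and 4.35%. Only AT1G51820 and AT1G51850 met both limits. Near the array minimum on all arrays were 2 of the 9. AT1G51790 came nearest from the leaf side, with 1.53, 0.99 and -0.55, and AT1G51830 had 0.69, 0.20 and -1.46. AT1G51890 differed by 1.44 and 1.10 in seedlings and by -0.23 in leaves, at leaf signals of 9.02 and 8.79 against 2.88 to 4.35 in seedlings. The family groups used for this paragraph and for the JOX, peroxidase, TIR and ligase neighbours were put together after the values had been seen.

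PUB23 was the one member among 8 measured ubiquitin ligases of the stress response. It had signals of 4.74 in mock and 5.78 in EST seedlings at 3 h, 4.88 and 5.99 at 4 h, and 8.57 and 7.71 in mock and EST leaves. The seedling differences of 1.04 and 1.11 were nearly equal at 3 h and 4 h, and both leaf signals lay above all seedling signals. Its close paralogue PUB22 had similar seedling differences, 0.97 and 0.85, and a leaf difference of -0.31, while PUB24 stood at 0.01, 0.01 and 0.21. The array measured all 3 at higher mean signals in leaves, but the EST difference was past both limits for PUB23 only.

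Transcription-related members had some of the largest gaps. AT1G10585, a bHLH transcription factor, had signals of 5.33 in mock and 7.13 in EST seedlings at 3 h, 5.92 and 7.17 at 4 h, and 8.65 and 7.11 in mock and EST leaves. With EST, all 3 samples therefore had nearly the same level, between 7.11 and 7.17. AT2G22880, a VQ-motif protein of a family that binds WRKY factors, had 3.53 and 5.49 at 3 h, 3.63 and 5.82 at 4 h, and 9.58 and 8.86 in leaves. Its seedling differences of 1.96 and 2.19 were large at both times and its leaf level was far above that of seedlings. AT1G78410, also a VQ-motif protein, had a seedling difference of 1.23 after 3 h but 0.07 after 4 h, and -0.87 in leaves. AT2G43140, a second bHLH factor, differed by 0.97, 0.43 and -0.84, and its leaf signals of 5.0 and 4.15 lay below all seedling signals.

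Metabolic and defence enzymes completed the named members of known family. AT4G16260, of the beta-1,3-glucanase family that degrades fungal and plant wall glucans, had signals of 8.89 in mock and 9.24 in EST seedlings at 3 h, 9.02 and 9.96 at 4 h, and 8.87 and 6.5 in mock and EST leaves. Mock leaves were thus level with mock seedlings, and the leaf difference of -2.37 was the largest among members. AT1G26420, a berberine bridge enzyme-like oxidase, had differences of 0.74, 0.83 and -1.02. Its relatives AT1G30700 and AT4G20860 had larger seedling differences, with means of 2.79 and 1.88, and leaf differences of 0.13 and -0.18. MGL, methionine gamma-lyase, which breaks methionine down, had differences of 1.33 after 3 h, 0.01 after 4 h and -0.63 in leaves. AT1G72920, with a TIR domain as found in immune receptors, had 1.39, 0.89 and -0.90, and the TIR gene AT1G72940, with 1 protein-coding gene between them, had 0.69, 0.49 and -1.0 and missed the seedling limit narrowly. AT5G52750, a heavy-metal-associated domain protein, had 0.98, 0.34 and -0.75, while its direct neighbour AT5G52760 had 0.83, 0.64 and -0.11. AT3G12710 of the DNA glycosylase family differed by 1.26, 0.21 and -1.15, and AT2G39420, an alpha/beta-hydrolase, by 0.59, 0.64 and -0.62.

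Members with a gene identifier for which no role is given here were AT5G28630, AT5G40690, AT5G14730, AT1G25400, AT3G50900, AT3G19030, AT1G05575, AT5G19930, AT1G76070 and AT5G53030, and AT2G20670 encodes a protein of unknown function of the DUF506 family. AT5G28630 had one of the widest gaps, with signals of 3.47 in mock and 4.06 in EST seedlings at 3 h, 4.46 and 5.34 at 4 h, and 6.05 and 3.95 in mock and EST leaves. Its EST leaf signal lay inside the seedling range and its mock leaf signal above it. Of the unnamed probe sets, 266292_at had 6.93 and 7.72 at 3 h, 6.54 and 7.60 at 4 h, and 4.27 and 2.24 in leaves, so that leaves were lower throughout and ended at the array minimum. The probe set 249101_at had 4.0 and 5.0 at 3 h, 4.96 and 5.41 at 4 h, and 5.95 and 4.10 in leaves. The signals of 261449_at were 4.80 and 4.85 at 3 h, 3.28 and 5.35 at 4 h, and 7.0 and 5.57 in leaves, and its mock arrays differed from each other by 1.52, so the 4 h pair alone carried its seedling difference. A signal within 0.6 of the array minimum occurred on at least 1 array in 6 members, on the EST leaf array in 3 and on a mock seedling array in 3.

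The named members were spread over all 5 chromosomes, with 10 on chromosome 1, 7 on chromosome 2, 4 on chromosome 3, 3 on chromosome 4 and 8 on chromosome 5, and no 2 members were probe sets of the same named gene. Within 10 protein-coding genes of each other lay only AT1G51820 and AT1G51850.

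The seedling pairs did not always tell the same story. Both pairs reached 0.6 in 25 of the 60 members and both reached 1 in 6, and of these 6 only AT1G10585 and AT5G64100 (PRX69) also had a leaf difference of -1 or lower. At 3 h, 29 members reached 1, against 288 probe sets in all (1.27%). At 4 h, 14 did, against 163 in all (0.717%). Both shares follow from the rule. The 3 h difference was the larger one in 37 members and the 4 h difference in 23. In 6 members 1 pair showed 0.2 or less, and in 2 of them, PRX21 at 3 h and 255585_at at 4 h, the difference was below 0. With the mock arrays of 3 h and 4 h exchanged, 24 members reached 0.6 in both pairs.

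**Figure D3:**
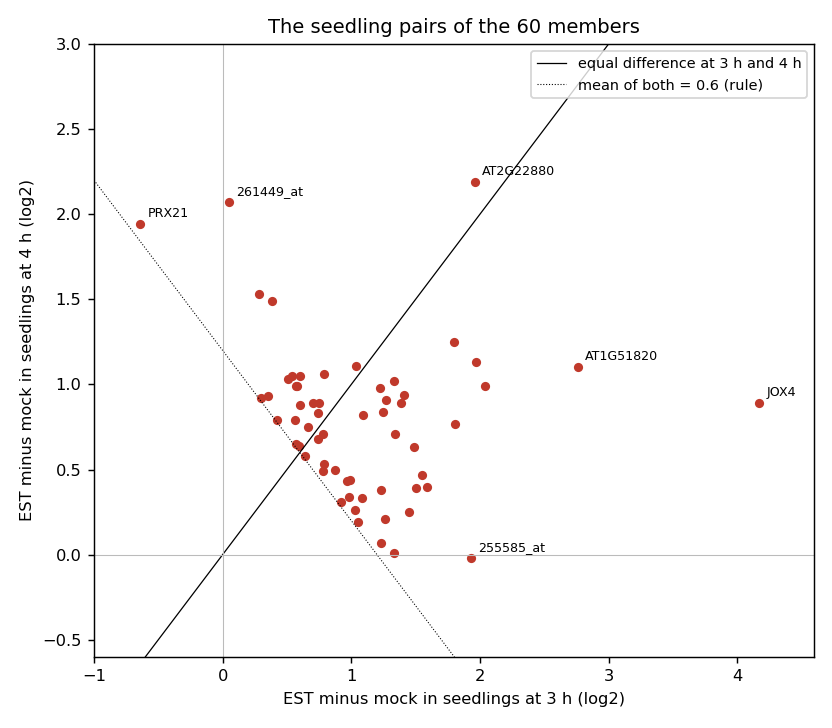
EST minus mock in seedlings at 4 h (vertical, log2) against that at 3 h (horizontal, log2) for the 60 members; the solid line marks equal differences and the dotted line the limit of the rule, a mean of 0.6. AT2G22880 was high at both times, JOX4 mainly at 3 h, and PRX21 and 261449_at only at 4 h.

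The mock arrays at 4 h and 3 h were compared as well, because the rule used only their mean. The 4 h signal was higher by at least 0.6 in 18 members (30.0%), against 679 probe sets in all (2.99%), and lower by at least 0.6 in 5 members (8.33%), against 349 in all (1.53%). Over members the median of mock 4 h minus mock 3 h was 0.28, with a range from -1.52 to 1.4, and 45 of 60 were above 0. Over all probe sets the median was 0.0, and 9311 of 22746 were above 0. Among named members the widest were AT3G12710 with 1.4, AT5G14730 with 1.22, AT3G19030 with 1.11, AT5G40690 with 1.1 and PRX38 with 1.08. Among the 14387 probe sets with a mock leaf signal at least 0.6 above the array minimum, 3.9% were higher and 1.57% lower at 4 h by at least 0.6. Of these 14387, 8381 were above 0. The members therefore varied more between mock seedlings than most probe sets did, in either direction, and with 1 array a time this could not be tested. Limits on single arrays can favour probe sets that vary between arrays, so this spread is a description. Of the 386 probe sets that met the seedling limit and stayed within 0.6 in leaves, 22.8% were higher at 4 h by at least 0.6, and of the 63 that were up by at least 0.6 in both tissues, 9.52%. Lower at 4 h by at least 0.6 were 2.07% and 1.59% of these groups. Above 0 were 268 of the 386 and 42 of the 63. No difference between the groups was tested. What part this spread had in the EST minus mock differences was not tested.

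Without EST, most members had a higher signal in leaves than in seedlings. The median mock leaf signal was 8.02, against medians of 5.11 and 5.62 in mock seedlings at 3 h and 4 h, while the array medians over all probe sets were 5.15, 5.16 and 5.29. Mock leaves lay above both mock seedling arrays in 50 members, below both in 8 and between them in 2. The same count was not made over all probe sets. Against the mean of both mock seedling arrays, mock leaves were higher in 51 members and in 7804 of all 22746 probe sets. They were higher in 7324 of the 14387 probe sets with a mock leaf signal at least 0.6 above the array minimum. The median of mock leaf minus mean mock seedling signal was 2.23, against 0.00 over all probe sets, and ranged from -3.40 to 6.90. At least 1 unit higher in mock leaves were 45 members (75.0%), against 3306 probe sets in all (14.5%), and at least 1 unit lower were 5 (8.33%), against 3184 (14.0%). A leaf difference of -0.6 can be reached only from a mock leaf signal at least 0.6 above the array minimum, which 14387 probe sets had. Among these, 23.0% were at least 1 unit higher and 19.6% at least 1 unit lower in mock leaves. The mock arrays also enter the rule, and a low mock seedling or a high mock leaf signal favours selection, so these values are a description.

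Differences of at least 5 units between mock leaves and mock seedlings occurred in 6 members. AT2G20670 led with 6.90, with mock seedling signals of 4.52 and 4.79 and a mock leaf signal of 11.55. JOX4 followed with 6.66, PRX21 with 6.20, 260287_at with 6.14, AT2G22880 with 6.00 and 248169_at with 5.81. At the other end were 258239_at with -3.40, 266132_at with -2.69, 251304_at with -2.50, 266292_at with -2.46 and PRX38 with -1.33. The order among neighbours in this ranking was not tested.

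**Figure D4:**
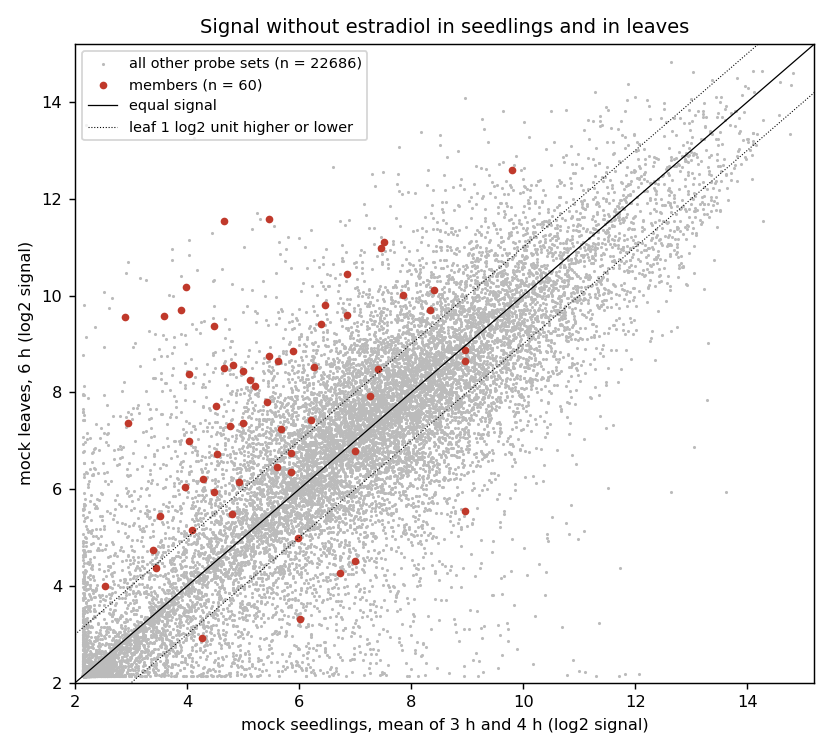
Log2 signal in mock leaves at 6 h (vertical) against the mean log2 signal in mock seedlings at 3 h and 4 h (horizontal) for all 22746 probe sets, with the 60 members in red; the solid line marks equal signals and the dotted lines a difference of 1 unit. Of the members, 45 lie above the upper dotted line and 5 below the lower one.

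The leaf level was then compared in a way that shares no array error with the rule if arrays are equally noisy, by averaging mock and EST arrays within each tissue. The median of leaf average minus seedling average was 1.47 over members and 0.00 over all probe sets. Both leaf arrays lay above all 4 seedling arrays in 30 members (50.0%), against 5809 of all probe sets (25.5%), and below all 4 in 8 members (13.3%), against 5847 (25.7%). Among the 14387 probe sets measurable in mock leaves, the shares were 39.3% above and 35.5% below. In the remaining 22 members the tissues overlapped. By limma with Benjamini-Hochberg adjustment over all 22746 probe sets, 26 members (43.3%) were higher in leaves at an adjusted p under 0.05, against 4755 of all probe sets (20.9%). Lower in leaves were 5 members (8.33%), against 4145 (18.2%). Of the probe sets measurable in mock leaves, 29.7% were called higher and 26.2% lower. The spread in this fit came from the seedling arrays alone, with 2 residual degrees of freedom, and the leaf arrays were assumed to vary like them. Leaving out 1 seedling array lowered the counts to between 13 and 15 members higher and between 1 and 3 lower: 14 and 3 without the mock array of 3 h, 13 and 2 without the EST array of 3 h, 15 and 3 without the mock array of 4 h, and 13 and 1 without the EST array of 4 h. The share of all probe sets called higher fell alongside, to between 10.5% and 11.6%, and the share called lower to between 9.61% and 11.8%.

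Among members higher in leaves, AT2G20670 had the widest difference, 6.16 ± 0.27 (SE; limma adjusted p = 0.00613). AT2G22880 was higher by 4.6 ± 0.14 (SE; limma adjusted p = 0.00364). PUB23 differed by 2.79 ± 0.10 (SE; limma adjusted p = 0.00457), JOX2 by 2.83 ± 0.15 (SE; limma adjusted p = 0.00767) and PRX69 by 1.99 ± 0.11 (SE; limma adjusted p = 0.00814). The bHLH gene AT1G10585 was higher by 1.49 (limma adjusted p = 0.0416). For JOX4 the difference of 4.90 ± 0.99 (SE; limma adjusted p = 0.0633) did not pass, nor did that of PRX21, 5.47 ± 1.0 (SE; limma adjusted p = 0.0532), although both leaf arrays were above all seedling arrays for each. The seedling signals of these 2 genes differed widely between arrays. JOX3 with 1.44 (limma adjusted p = 0.0801), AT1G51820 with 1.68 (limma adjusted p = 0.212) and B120 with 0.55 (limma adjusted p = 0.318) did not pass either.

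The members lower in leaves were the bHLH gene AT2G43140 and the unnamed probe sets 258239_at, 266292_at, 251304_at and 266132_at. AT2G43140 was lower by 1.76 units in the average, with an adjusted p of 0.016 by limma. The unnamed ones differed by -4.11, -3.94, -3.64 and -3.54 in the same order, with limma adjusted p values of 0.00604, 0.0056, 0.00454 and 0.0166. PRX38 at -2.19 (limma adjusted p = 0.0603) and AT4G16260 at -1.59 (limma adjusted p = 0.0529) did not pass. A low leaf level was thus found in a minority of members. The lower leaf signal after EST was fixed by the rule for every member, whatever its leaf level.

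**Figure D5:**
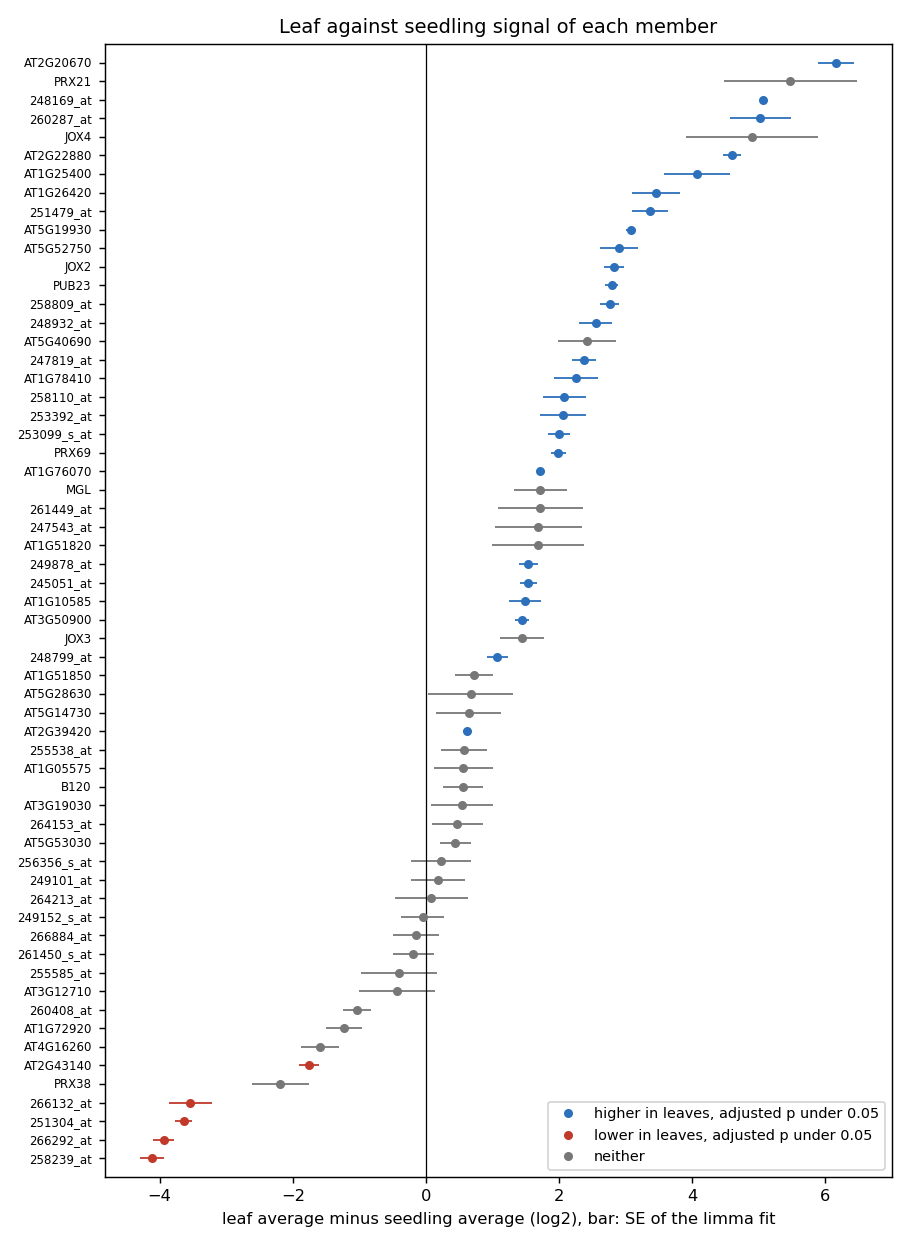
Leaf average minus seedling average (horizontal, log2) of each of the 60 members, ordered by size, with bars for the standard error of the limma fit; blue marks the 26 members higher in leaves and red the 5 lower in leaves at an adjusted p under 0.05. The members extend from -4.11 for 258239_at to 6.16 for AT2G20670.

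A high leaf level was not particular to the members. Among the 386 probe sets that met the seedling limit but stayed within 0.6 in leaves, the median of leaf average minus seedling average was 1.27, 57.8% had both leaf arrays above all seedling arrays and 46.4% were called higher in leaves. With the mock leaf signal required to be at least 0.6 above the array minimum, 342 of these remained and 52.3% were called higher. Among the 63 probe sets up by at least 0.6 in both tissues, the median was 0.91 and 42.9% were called higher in leaves. Of the 919 probe sets down in leaves and within 0.6 in seedlings, 48.9% were called higher, with a median of 0.55. The members' 43.3% lay within the range of these groups, and no difference between the groups was tested.

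Gene lists drawn up with the study's gene table known gave little beyond the families above, since few of their genes had a named probe set. Some of those had a name only through that table, which lists genes the study selected for their response on these same arrays, so counts of its genes at the seedling limit are partly fixed by that choice. This held for 4 of the 5 measured genes of pattern-triggered defence, 2 of the 4 iron deficiency genes and 1 of the 2 markers of ageing leaves. No gene of these 3 lists was a member, and the leaf limit, met by 4.35% of all probe sets, was met by 1 of them, SWEET15. FRK1, a receptor kinase used as a marker of immune responses, had differences of 1.52 at 3 h, 1.35 at 4 h and -0.52 in leaves. Leaf differences of the other measured defence genes went both ways. They were 1.53 for NHL10, 0.12 for SAG101, -0.56 for HSPRO2 and -0.46 for BAP1. ORG3, a bHLH factor of the iron deficiency response, had 1.53, 1.71 and -0.10, at leaf signals of 2.59 and 2.5 near the array minimum. SWEET15, a sugar transporter of ageing leaves, had 0.99, -0.16 and -0.68 and missed the seedling limit. Its leaf signals were 2.83 and 2.15, so its leaf difference ended at the array minimum. ORE1, the other measured marker of ageing leaves, had 1.57, 1.24 and -0.47. Its leaf signals of 10.31 and 9.83 lay above its seedling signals of 4.85 to 7.09. Only 1 of 24 ethylene response and DREB factors, 1 of 14 clock genes and 2 of 14 sugar and dark response genes were measured, with no member among them.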

How the data were processed

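RNA of 6 samples, 1 per condition, was hybridised to Affymetrix ATH1 arrays. The authors deposited log2 signals made with GCRMA, a background correction that uses probe sequence, followed by normalization and summary per probe set; its version was not given in the sources used here. These values were used as deposited, without the 64 control probe sets. Precision is limited by the number of arrays. Gene names came from the platform annotation (13513 probe sets with 1 gene, 503 with several) and, for 42 more, from a supplementary gene table of the study, matched through its values within 2e-05; 8688 probe sets had no name here. Identifiers were updated through RefSeq (13436 matched).

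The fit used limma 3.58.1 in R 4.3.3, with a mean for each tissue and treatment, the 3 h and 4 h arrays as replicates, the contrast of leaf and seedling averages, and Benjamini-Hochberg adjustment. Other values were computed in Python 3.11.15. The procedure was tested on simulated data in 2 scenarios, the second added after the first failed. It recovered changed probe sets where many differed between tissues, and did not recover them where few did, so the calls rest on the tissues differing widely. The members and gene lists were chosen with earlier results of these data known. Every named member is given by name; signals on all arrays are given for the 10 members with the widest gap and for members in the study's gene table or in a gene list. Alternatives covered normalization, limits, filters, pairing of mock arrays, left-out arrays and the fit.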

Additional observations from a re-analysis of the deposited data

How the results depend on the processing

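The number of members depended on the limits. It was 195 with limits of 0.4, 7 with limits of 1, 25 with each seedling pair at 0.6, 24 with each pair at 0.6 after exchanging the mock seedling arrays, 94 with the 3 h pair alone, 31 with a signal of 6 required in each tissue and 32 with 1 probe set per annotated gene; it stayed within 1.5 times of 60 in the other settings. Of the 60, 49 were found with quantile normalization and 45 with median centring. With the 3 h pair alone 45 of the 60 were found. The 4 h pair alone also gave 60 probe sets, but only 40 of them were members. The median of leaf average minus seedling average kept its sign throughout, at 1.51 with quantile normalization, 1.54 with median centring, 1.42 with limits of 0.4, 1.72 with limits of 1, 1.69 with each pair at 0.6, 1.59 with each pair at 0.6 after the exchange, 1.06 with the 3 h pair, 1.44 with the 4 h pair, 1.54 with the filter, 1.44 with the families kept in and 1.59 with 1 probe set per gene. The median of mock leaf minus mock seedling signal also kept its sign, at 2.55, 1.97, 3.03, 3.03, 2.95, 2.55 and 2.46 for quantile normalization, limits of 0.4, limits of 1, each pair at 0.6, each pair after the exchange, the filter and 1 probe set per gene. Leaving out 1 seedling array gave 13 to 15 members higher and 1 to 3 lower in leaves. With seedling time as a block, which pairs mock and EST by hour, 15 members were higher and 4 lower. The shares of all probe sets in that fit were 13% higher and 11.2% lower. With limma's trend 29 members were higher and 9 lower, against 23.4% and 19.9% of all probe sets. With a filter at a signal of 6 on any array, 35 were higher and 8 lower among 53 members tested. Of the 11566 probe sets that passed this filter, 38.9% were called higher and 36.6% lower. The filter leaves fewer probe sets to adjust over. The cause of the other changes was not tested. The exchange alone leaves the seedling mean, and so the members, as they were. Single arrays, and signals near the array minimum in 6 members, limit every value.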

Other observations

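The opposite pattern was rarer. Only 12 probe sets were lower by at least 0.6 in EST seedlings and higher by at least 0.6 in EST leaves. The reverse pattern had 62 before 2 were left out by family. Both numbers follow from limits on single arrays with no test. The leaf limit of this pattern was met by 1032 probe sets in all (4.54%). How many probe sets met its seedling limit was not counted, so the rarity of the pattern could not be set against it. Among the 12, MSRB6, a methionine sulfoxide reductase, had signals of 7.54 in mock and 6.5 in EST seedlings at 3 h, 7.20 and 5.83 at 4 h, and 3.59 and 4.37 in mock and EST leaves. AT4G19430 had the widest gap, with 6.02 and 4.25 at 3 h, 5.88 and 5.57 at 4 h, and 5.02 and 6.92 in leaves. In this group the median of mock leaf minus mock seedling signal was -1.08, so mock leaves tended to lie below mock seedlings, while the 60 members tended to lie above. The mock arrays enter both choices, so this is a description.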
